A study of Mus musculus with 6 samples.

Results

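Slc2a2, Gckr, Pfkl, Pfkfb1, Fbp1, Khk, Pklr and Pcx, 8 genes through which the liver takes up glucose and fructose, breaks them down or makes glucose anew, were followed in livers of LERKO and CT mice. They were chosen by name as enzymes, a transporter and a regulatory protein of glucose and fructose handling. The array's annotation gave a probe set of 1 gene for 7 of the 8, and each of the 7 had 1 such probe set. Pfkfb1, a bifunctional enzyme that sets the level of the fructose bisphosphate that regulates glycolysis, was not analysed here. They are among 18820 genes with such a probe set. The 7 are set beside 10633 probe sets that reached a signal of 100 in at least 1 array, of 35556 in all.

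Whole-liver RNA of 3 LERKO and 3 CT mice, all female and on the C57BL/6J background, was measured on Affymetrix Mouse Gene 1.1 ST arrays, each holding the RNA of 1 mouse. LERKO mice carried the Alb-cre transgene on ERα fl/fl alleles, and CT mice carried ERα fl/fl alleles without cre, so both groups share the floxed alleles while cre and the loss of ERα cannot be told apart. The albumin promoter drives cre in hepatocytes. The paper proposes non-parenchymal cells as the likeliest source of the ERα that remains in LERKO livers, and whole-liver RNA does not separate cell types. The labels give no age for these mice, and the methods state that the animals had free access to food and water, without saying whether food was withdrawn before these livers were collected.

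Glucose enters hepatocytes through a transporter of the plasma membrane and is phosphorylated inside the cell, a step that a regulatory protein restrains between meals. Glycolysis then passes through the phosphofructokinase and pyruvate kinase steps, and gluconeogenesis bypasses them through pyruvate carboxylase and fructose bisphosphatase. Fructose is phosphorylated by ketohexokinase and joins the pathway below the phosphofructokinase step. Several of these genes are induced by sugar through the transcription factor ChREBP (gene Mlxipl), which binds carbohydrate response elements in their promoters.

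Promoter sequences are shown for the 3 genes whose levels or promoter letters stand out below, Pklr, Khk and Pcx. Each runs from 250 bases before to 50 bases after a transcription start of RefSeq (build GRCm38.p6) and is written 5′ to 3′. Capitals mark exact matches to the motifs searched. The Pklr window lies at chr3:89136373-89136672 on the plus strand and belongs to the downstream of the gene's start sites.

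Pklr: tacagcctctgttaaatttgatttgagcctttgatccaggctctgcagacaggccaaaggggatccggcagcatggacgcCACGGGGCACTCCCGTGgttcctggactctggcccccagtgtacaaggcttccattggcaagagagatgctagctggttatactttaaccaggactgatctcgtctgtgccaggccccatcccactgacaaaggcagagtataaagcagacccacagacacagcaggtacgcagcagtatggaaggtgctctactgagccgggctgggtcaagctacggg

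Khk, at chr5:30921309-30921608 on the plus strand, and the upstream start of Pcx, at chr19:4510222-4510521 on the plus strand, follow for comparison.

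Khk: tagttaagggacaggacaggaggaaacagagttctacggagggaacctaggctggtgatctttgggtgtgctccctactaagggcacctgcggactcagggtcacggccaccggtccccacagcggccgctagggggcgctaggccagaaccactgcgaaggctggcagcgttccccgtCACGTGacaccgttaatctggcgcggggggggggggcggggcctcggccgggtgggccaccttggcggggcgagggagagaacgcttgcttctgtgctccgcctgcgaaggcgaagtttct

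Pcx: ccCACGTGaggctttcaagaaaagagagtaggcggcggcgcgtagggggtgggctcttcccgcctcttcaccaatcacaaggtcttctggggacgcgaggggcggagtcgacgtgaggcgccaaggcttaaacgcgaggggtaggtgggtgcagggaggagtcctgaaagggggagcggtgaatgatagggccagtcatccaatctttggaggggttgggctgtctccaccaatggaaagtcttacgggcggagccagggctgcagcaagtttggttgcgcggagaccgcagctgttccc

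The capitals in Pklr are a match to the carbohydrate response element, searched as CACGNG and CNCGNG with 5 free bases between them. They span positions −170 to −154, counted from the start site, which has no position 0. In the rat, a carbohydrate response element in this part of the liver pyruvate kinase promoter is the classical site of the glucose response of the gene. Of 32851 promoter windows of the same length, 120 (0.365%) hold such a match, and among the 13 windows of the 8 genes the one in Pklr was alone. The capitals in Khk, at −71 to −66, and in Pcx, at −248 to −243, are E-boxes (CACGTG), which 7.15% of all windows hold. The full palindromic estrogen response element, searched as GGTCA and TGACC with 3 free bases between them, had no match in the 13 windows and is present in 0.0700% of all windows. The palindromic site of HNF1, a hepatocyte transcription factor, had no match either and is present in 0.00913% of all windows. Both strands were searched, and no match overlapped another. A match is a run of letters and not a site shown to be bound, and a missing match says only that these letters are not in the window.

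Levels are log2 signals of the robust multichip average (RMA), in which 1 unit is a doubling. In each array, 9452 to 9865 probe sets were at or over a signal of 100 (6.64 on this scale), and arrays correlated with each other at 0.967 to 0.989. Esr1, the targeted gene, lay between 6.75 and 7.06 in LERKO mice and between 8.29 and 8.78 in CT mice, so each array carried the level of its label, although the place of its probes relative to the deleted exon is not known. Of 8 hepatocyte markers, 7 had a probe set of 1 gene and all of these reached 100 in every array, with a summed signal of 15.94 to 16.00 in LERKO mice and 15.95 to 16.05 in CT mice. Of 11 pancreas markers, 8 had a probe set, with a summed signal of 10.98 in CT replicate 3 and of at most 7.04 in the other arrays. Of 8 adrenal cortex markers, 7 had one, with 12.75 in LERKO replicate 2 and at most 6.72 elsewhere. Skeletal muscle markers (10 of 10 with a probe set) had a summed signal of 10.25 in CT replicate 3 and 8.59 in LERKO replicate 2, and between 7.29 and 7.60 in the others. Cholangiocyte markers (4 of 5 with a probe set) had a summed signal of 7.20 to 7.29 in LERKO mice and 7.40 to 7.75 in CT mice, without overlap. Only 1 of them, Sox9, reached 100 in any array (2 of 6), and all its LERKO values lay below its CT values (7.13% of all probe sets). The other markers of this list stayed below 100 in all arrays, with overlapping groups. The part of cholangiocyte markers in the results was not tested. Those of endothelial and stellate cells (10 of 10) lay at 12.56 to 12.77 in LERKO mice and 12.49 to 12.93 in CT mice, and those of kidney tubule (7 of 7) at 6.74 or less in all arrays. This scale has no 0, so absence of a marker cannot be read from it. For genes and lists whose differences moved by over 1.5 times without CT replicate 3 and LERKO replicate 2, the main such values are given. In whole liver, fewer cells of a type and less RNA per cell cannot be told apart.

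Over the 7 genes, 2 had higher and 5 had lower means in LERKO livers, and the differences were small. They ranged from −0.17 to 0.20 on the log2 scale, with a median of −0.083. The median size of the difference was 0.086 for the 7 genes and 0.087 for all probe sets tested, so the 7 genes differed between genotypes by about as much as a typical probe set. At an adjusted p under 0.05 from limma, 0 of the 7 passed, and the background was 0 of 10633 probe sets, or 0%. Esr1, the targeted gene, was first by p at −1.65 on the log2 scale and did not pass either (limma, adjusted p = 0.149). The paper called Esr1 at the same threshold. A count of 0 here therefore does not show that the 7 genes were unchanged. At an unadjusted p under 0.05 from limma, 1 of the 7 passed, Pcx, where 6.98% of all probe sets did. The unequal variance test of the methods, applied to the same values, also passed Pcx alone before adjustment and none after it. Over all probe sets, 46.5% had a higher mean in LERKO livers and 53.5% a lower one. All 7 genes were above a signal of 100 in all 6 arrays, so the filter on low signals did not decide which of them were seen.

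**Figure D1:**
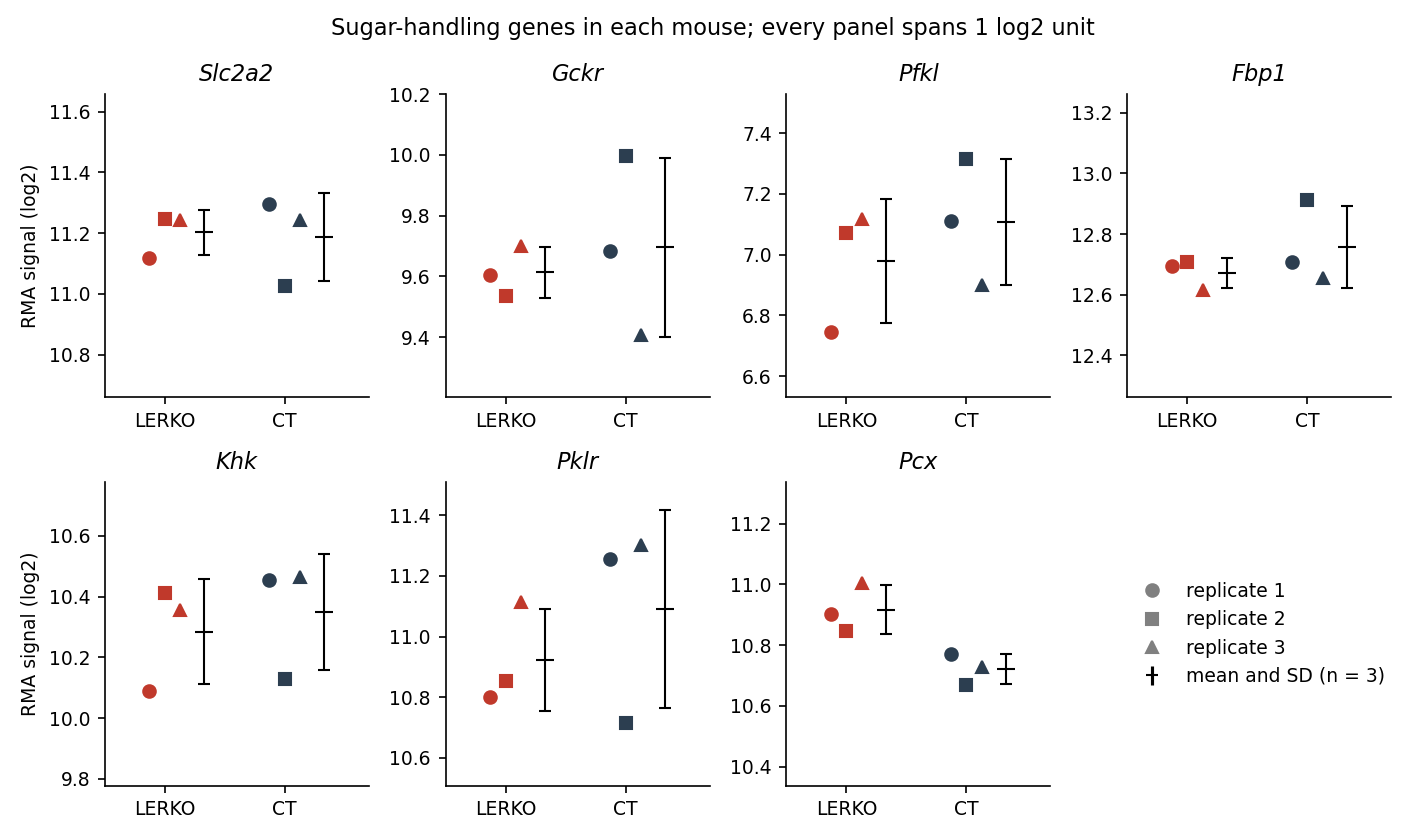
RMA signal (log2) of the 7 genes, 1 point per mouse with a symbol shape for each replicate number, LERKO to the left and CT to the right, with the mean and SD of 3 mice as bars. Pcx lies higher in all LERKO mice (10.85 to 11.01) than in all CT mice (10.67 to 10.77), and the groups overlap for the other 6 genes.

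Slc2a2, which encodes the glucose transporter GLUT2 of the hepatocyte membrane, was nearly level. It lies at chr3:28697903-28728361 (GRCm38.p6). Its signal was 11.12, 11.25 and 11.24 in the LERKO mice, against 11.30, 11.02 and 11.24 in the CT mice. The lowest and the highest mouse were both CT, and the groups overlapped. The mean was 11.20 ± 0.07 in LERKO livers and 11.19 ± 0.14 in CT livers (SD, n = 3 each), a ratio of 1.01 with a 95% confidence interval of 0.864 to 1.18 (limma, adjusted p = 0.984). With array weights the difference took the opposite sign, at −0.025 on the log2 scale.

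Gckr encodes the nuclear regulatory protein that restrains the phosphorylation of glucose in hepatocytes. It lies at chr5:31297266-31327302. Its signal was 9.60, 9.54 and 9.70 in the LERKO mice, against 9.68, 9.997 and 9.41 in the CT mice. The CT mice spanned 0.59 and the LERKO mice 0.17 on the log2 scale, and all LERKO values fell inside the CT range. The mean was 9.61 ± 0.08 in LERKO livers and 9.70 ± 0.29 in CT livers (SD, n = 3 each), a ratio of 0.944 (95% confidence interval 0.736 to 1.21, limma, adjusted p = 0.921). Without CT replicate 2 the difference was 0.068 in place of −0.083, and with LERKO replicate 2 and CT replicate 3 both left out it was −0.19 (limma, adjusted p = 0.660).

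Pfkl, the liver form of phosphofructokinase, catalyses the committed step of glycolysis. It lies at chr10:77986947-78009807. Its signal was 6.75, 7.07 and 7.12 in the LERKO mice, against 7.11, 7.32 and 6.90 in the CT mice, which placed it nearest of the 7 to the signal of 100. LERKO replicate 1 was the lowest and CT replicate 2 the highest mouse. The mean was 6.98 ± 0.20 in LERKO livers and 7.11 ± 0.21 in CT livers (SD, n = 3 each), a ratio of 0.914 (95% confidence interval 0.721 to 1.16, limma, adjusted p = 0.853). With LERKO replicate 2 and CT replicate 3 both left out, the difference was −0.28 on the log2 scale (adjusted p = 0.581), against −0.13 with all mice.

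Pklr, the pyruvate kinase of liver and red blood cells, catalyses the last step of glycolysis and is a textbook target of ChREBP. It lies at chr3:89136122-89146815. Its signal was 10.80, 10.85 and 11.11 in the LERKO mice, against 11.25, 10.72 and 11.30 in the CT mice. CT replicate 2 was the lowest mouse, while the other CT mice were the highest, above all LERKO mice. The mean was 10.92 ± 0.17 in LERKO livers and 11.09 ± 0.33 in CT livers (SD, n = 3 each), a ratio of 0.890 (95% confidence interval 0.665 to 1.19, limma, adjusted p = 0.842). This was the largest negative difference of the 7 genes, at −0.17 on the log2 scale. It depended on single mice, at −0.36 without CT replicate 2 (adjusted p = 0.773), −0.063 without CT replicate 3 and −0.029 with LERKO replicate 2 and CT replicate 3 both left out.

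Fbp1, the fructose bisphosphatase of liver, reverses the phosphofructokinase step in gluconeogenesis. It lies at chr13:62864753-62888298. Its signal was 12.69, 12.71 and 12.61 in the LERKO mice, against 12.71, 12.91 and 12.66 in the CT mice. Apart from CT replicate 2 the mice lay within a narrow band. The mean was 12.67 ± 0.05 in LERKO livers and 12.76 ± 0.13 in CT livers (SD, n = 3 each), a ratio of 0.942 (95% confidence interval 0.814 to 1.09, limma, adjusted p = 0.838). Without CT replicate 2 the difference was −0.0096, and with LERKO replicate 2 and CT replicate 3 both left out it was −0.15 (limma, adjusted p = 0.659), against −0.086 with all mice.

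Pcx, the mitochondrial pyruvate carboxylase, makes oxaloacetate from pyruvate and so opens gluconeogenesis from lactate and alanine. It lies at chr19:4510472-4621752. Its signal was 10.90, 10.85 and 11.01 in the LERKO mice, against 10.77, 10.67 and 10.73 in the CT mice. The lowest LERKO mouse was 0.075 above the highest CT mouse. The mean was 10.92 ± 0.08 in LERKO livers and 10.72 ± 0.05 in CT livers (SD, n = 3 each), a ratio of 1.15 with a 95% confidence interval of 1.01 to 1.29 (limma, adjusted p = 0.703). An exact two-sided permutation test gave p = 0.10, the smallest that 3 mice against 3 allow. Pcx was the only one of the 7 whose groups did not overlap, and 5.91% of all probe sets had every LERKO mouse above every CT mouse (13.0% had no overlap in either direction). A count of 1 in 7 is near that background, and Pcx ranked 492 of 10633 by p. With 1 mouse left out the difference ranged from 0.15 to 0.23. That the groups stayed apart each time says nothing further, since groups apart with all mice cannot overlap with fewer. Its unadjusted p was no longer under 0.05 without LERKO replicate 1, LERKO replicate 3, CT replicate 2 or CT replicate 3, nor with LERKO replicate 2 and CT replicate 3 both left out.

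Khk, ketohexokinase or fructokinase, phosphorylates fructose and thereby starts its breakdown. It lies at chr5:30921436-30931248. Its signal was 10.09, 10.41 and 10.35 in the LERKO mice, against 10.45, 10.13 and 10.47 in the CT mice. A single mouse of each genotype was low, LERKO replicate 1 and CT replicate 2, and the other 4 lay within a narrow band. The mean was 10.28 ± 0.17 in LERKO livers and 10.35 ± 0.19 in CT livers (SD, n = 3 each), a ratio of 0.956 (95% confidence interval 0.771 to 1.19, limma, adjusted p = 0.929). The sign turned to 0.033 on the log2 scale without LERKO replicate 1.

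**Figure D2:**
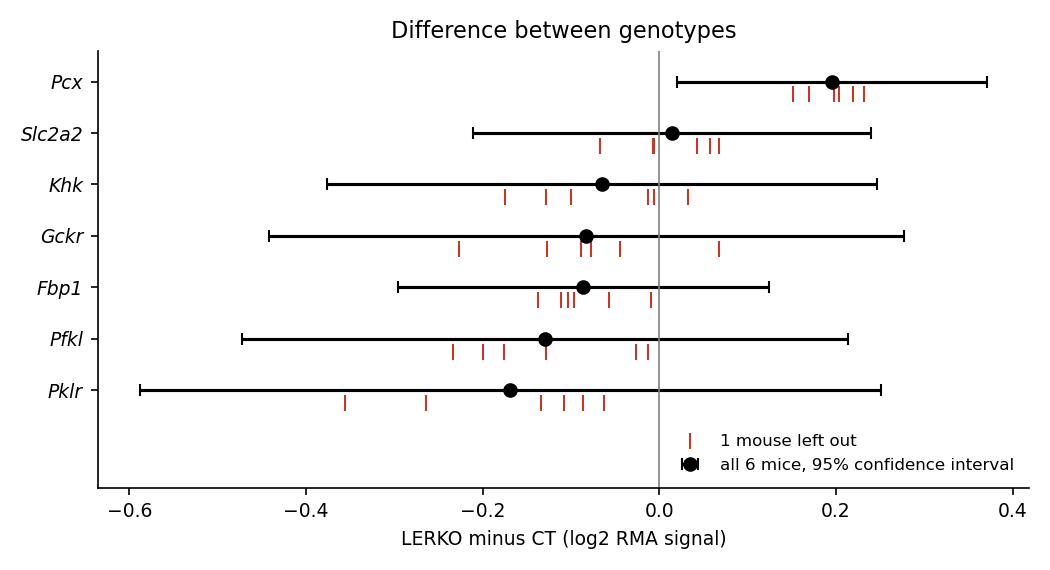
Difference in log2 RMA signal, LERKO minus CT, of the 7 genes (black points) with the 95% confidence interval of limma, and the same difference with each mouse left out in turn (red ticks). The interval of Pcx, from 0.020 to 0.37, lies above 0, and those of the other 6 genes include 0.

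The confidence intervals limit the size of a change. For the genes other than Pcx, a fall of LERKO livers to below 0.665 of the CT level, the lower bound of Pklr, lay outside all intervals, as did a rise above 1.21 times, the upper bound of Gckr. The intervals were narrowest for Pcx and Fbp1 and widest for Pklr. The SD within groups ranged from 0.068 for Pcx to 0.26 for Pklr, and the median over all probe sets was 0.12.

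Apart from Pcx, the range from the lowest to the highest mouse of 1 genotype exceeded the difference between genotypes for each gene, in LERKO and in CT mice. The SD of the LERKO mice did not exceed it for Fbp1 (SD 0.050, difference −0.086) or Pklr (SD 0.168, difference −0.169). The ratio of the highest to the lowest mouse was 1.5 for Gckr and Pklr, 1.48 for Pfkl, 1.30 for Khk, 1.26 for Pcx, 1.23 for Fbp1 and 1.21 for Slc2a2. CT replicate 2 was the highest mouse for Gckr, Pfkl and Fbp1 and the lowest for Slc2a2, Pklr and Pcx, so it was at one end of the 6 mice for 6 of the 7 genes. Its mean distance from the average of the 6 mice over the 7 genes was 0.23 on the log2 scale, beside 0.068 to 0.15 for the other mice. CT replicate 2 also had the lowest level of Kupffer and leukocyte markers (7 of 8 kept), with a mean of −0.38 relative to the 6 mice, where the LERKO mice lay from −0.087 to 0.11 and the other CT mice at 0.12 and 0.18. Across the 6 mice, Gckr ran against these markers, with Pearson's r of −0.93 (exact permutation p = 0.00833, adjusted 0.117 over 28 relations, Spearman's rho −0.83, exact p = 0.0583), and r was −0.67 over 4 mice without those farthest from the median of the markers. Slc2a2 ran with them at 0.78 (exact permutation p = 0.0458, adjusted 0.225, rho 0.77, exact p = 0.103), and at 0.66 over those 4.

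**Figure D3:**
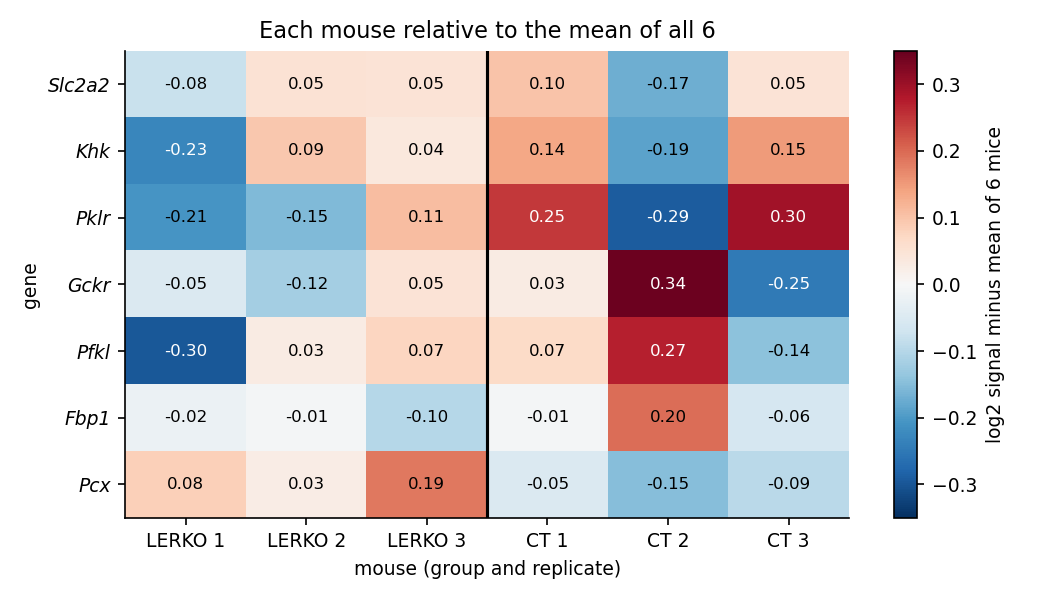
Log2 RMA signal of each gene (rows) in each mouse (columns, LERKO left of the line and CT right) minus the mean of the 6 mice; red is above and blue below that mean. CT replicate 2 is low for Slc2a2, Khk and Pklr (−0.17, −0.19 and −0.29) and high for Gckr, Pfkl and Fbp1 (0.34, 0.27 and 0.20).

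Some of the genes varied alike across the mice. Among them were Slc2a2, Khk and Pklr, for uptake of glucose, entry of fructose and the end of glycolysis. Over the 6 mice Pearson's r was 0.91 between Slc2a2 and Khk (exact permutation p = 0.0375, Spearman's rho 0.77, exact p = 0.103). It was 0.82 between Khk and Pklr (exact permutation p = 0.0528, rho 0.89, exact p = 0.0333) and 0.80 between Slc2a2 and Pklr (exact permutation p = 0.0542, rho 0.71, exact p = 0.136). Without the mice farthest from the median of the first gene, r over the 4 left was 0.43, 0.52 and 0.38 in the same order, while without CT replicate 2 alone r over 5 mice was 0.95, 0.73 and 0.71. Gckr, Pfkl and Fbp1 were all highest in CT replicate 2, with r of 0.77 between Gckr and Fbp1 (exact permutation p = 0.115, rho 0.26, exact p = 0.658) and 0.74 between Gckr and Pfkl (exact permutation p = 0.0944, rho 0.83, exact p = 0.0583). Without the farthest mice these were −0.60 and 0.35 over 4 mice, and without CT replicate 2 alone −0.095 and 0.44 over 5. Of 21 pairs, 9 had a positive and 12 a negative r over the 6 mice, and none passed after Benjamini-Hochberg adjustment, where the lowest adjusted exact p was 0.339.

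Pklr and Khk were then set beside other genes that sugar induces. The list of carbohydrate response targets holds 17 genes, of which 15 were kept, and its mean relative to the 6 mice was −0.35, 0.093 and 0.12 in the LERKO mice, against 0.062, −0.22 and 0.29 in the CT mice. LERKO replicate 1 and CT replicate 2, where Khk and Pklr were lowest, were thus also the lowest mice for this list. Khk followed the list with r of 0.94 (exact permutation p = 0.0139, adjusted 0.13, rho 0.77, exact p = 0.103) and Pklr with 0.80 (exact permutation p = 0.0667, adjusted 0.225, rho 0.77, exact p = 0.103). Without the 2 mice farthest from the median of the list, r was 0.39 for Khk and 0.48 for Pklr over the 4 left. Genes raised by feeding (8, of which 6 kept) averaged −0.56, 0.084 and 0.053 in the LERKO mice, against 0.36, −0.16 and 0.21 in the CT mice. Khk followed them with r of 0.92 (exact permutation p = 0.00417, adjusted 0.117, rho 0.94, exact p = 0.0167), and 0.98 over 4 mice. Over the same 4 mice, Pfkl and Gckr had r of −0.99 and −0.98 with this list, while over 6 mice they had 0.39 and −0.23. A high r over 4 mice thus also arose for genes with a weak r over 6. Over 6 mice, lists of cell type markers gave values of the same size as those of Khk, as the leukocyte markers did with Gckr. Fbp1 followed the hepatocyte markers with r of 0.89 (exact permutation p = 0.0292, adjusted 0.204, rho 0.77, exact p = 0.103), and −0.034 over 4 mice. The 4 lists were chosen after the values were seen, and the p-values were adjusted over all 28 relations of 4 lists with 7 genes. None passed at 0.05, and the lowest adjusted p of 0.117 was shared by Khk with the feeding list and Gckr with the leukocyte markers. The feeding list and the carbohydrate list share genes.

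**Figure D4:**
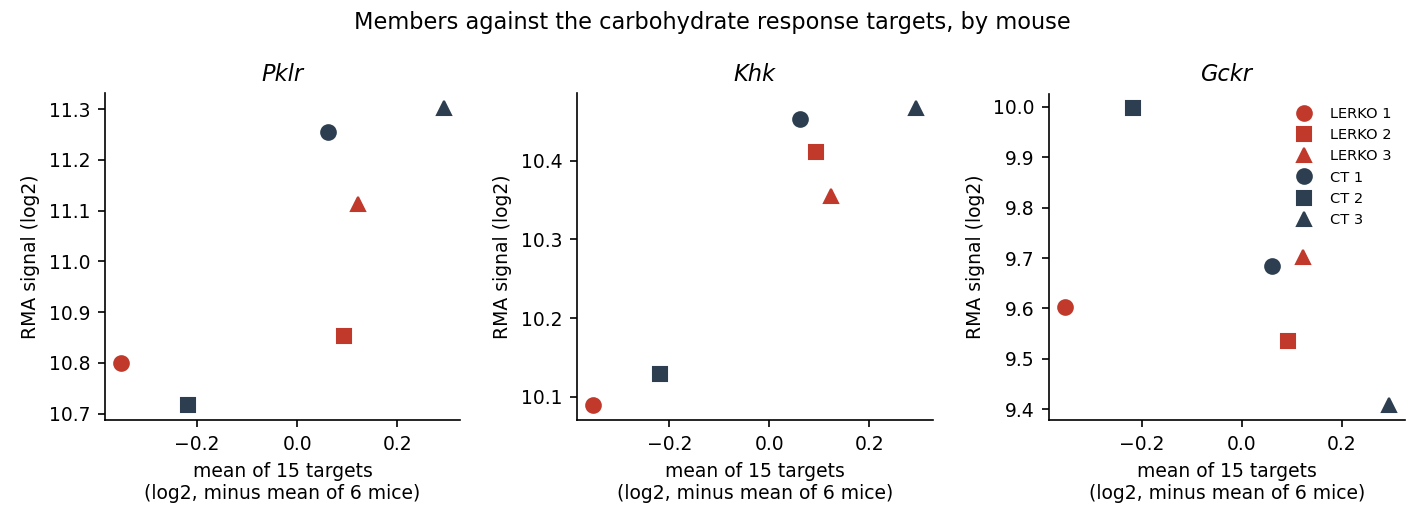
RMA signal (log2) of Pklr, Khk and Gckr against the mean of 15 kept carbohydrate response targets (log2, relative to the 6 mice), 1 point per mouse, LERKO in red and CT in dark blue. LERKO replicate 1 (−0.35) and CT replicate 2 (−0.22) lie lowest on the target axis and lowest for Pklr and Khk, while Gckr is highest in CT replicate 2 (9.997).

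For each gene, the other kept gene of highest r over the 6 arrays was also taken. This was Ces2e for Slc2a2 (r = 0.998), Taf1d for Gckr (0.992), Dennd5b for Pfkl (0.999), Itih1 for Fbp1 (0.992), Rab31 for Khk (0.995), Dcaf12 for Pklr (0.99) and Acvr2a for Pcx (0.987). Each was the highest of 7894 probe sets over only 6 arrays, so no p is given, and between 12 and 66 probe sets had an r over 0.95 with each gene.

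The other genes of these pathways were described in the same way. Of 27 other enzymes of glycolysis and gluconeogenesis, 23 had a probe set of 1 gene and 15 were kept, and 7 of these had higher and 8 lower means in LERKO livers. Their median was −0.017, beside −0.0099 over all probe sets. In this list 0 passed at an adjusted p under 0.05, and 1 was lower at an unadjusted p under 0.05, where 4% of all probe sets were. That gene was G6pc1, the glucose-6-phosphatase that releases free glucose, with 11.37, 11.62 and 11.90 in the LERKO mice against 12.05, 12.21 and 12.47 in the CT mice, all LERKO below all CT (7.13% of all probe sets). Its difference was −0.62 on the log2 scale (standard error 0.16, limma, adjusted p = 0.703). G6pc1 and Pcx, at both ends of gluconeogenesis, therefore lay on opposite sides of 0, while Pck1, the carboxykinase between them, was at −0.017 (standard error 0.10) and Fbp1 at −0.086 (standard error 0.088). For glucose-6-phosphatase mRNA, the paper found no significant change between LERKO and CT livers by quantitative PCR. It does not state whether those were the mice of the arrays. Pgam1, a mutase of glycolysis, had −0.14 (standard error 0.088) and Aldoc, an aldolase, −0.34 (standard error 0.25), with overlapping groups.

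Forms of the same enzymes that serve other tissues were also looked at. Pfkm, the muscle phosphofructokinase, averaged 6.94 ± 0.06 in LERKO livers and 6.89 ± 0.09 in CT livers (SD, n = 3 each), a difference of 0.046 (standard error 0.078). Pkm, the pyruvate kinase of muscle and growing cells, had 6.63, 7.45 and 6.57 in the LERKO mice against 6.88, 6.84 and 7.13 in the CT mice. Its highest values were in LERKO replicate 2 and CT replicate 3, the arrays with adrenal, pancreas and muscle markers, and their part in Pkm was not tested. Fbp2, the muscle bisphosphatase, and Pfkp, the platelet phosphofructokinase, stayed below a signal of 100 in all arrays, at 5.42 or less.

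In fructose and sugar alcohol handling, 5 of 9 genes were kept, 3 of them with higher and 2 with lower means. The median was 0.0045, and 0 were at an unadjusted p under 0.05. Tkfc, a kinase that acts after Khk in fructose breakdown, had −0.041 (standard error 0.090). Gpd1, which links triose phosphates to glycerol phosphate, had 0.14 (standard error 0.23) and Slc2a5, the fructose transporter, −0.077 (standard error 0.076). Of 11 other sugar transporters, 3 were kept, all with lower means in LERKO livers and overlapping groups. Slc2a1, the transporter of most dividing cells, had −0.27 (standard error 0.15), and Slc2a9, which carries urate, −0.0076 (standard error 0.093).

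Of 21 genes around the entry of pyruvate into mitochondria, 16 were kept, 8 with higher and 8 with lower means and a median of 0.014. Slc25a10, which exchanges malate and other dicarboxylates across the inner membrane and so serves the same route as Pcx, was 10.95, 10.89 and 11.03 in the LERKO mice, against 10.88, 10.63 and 10.58 in the CT mice. All LERKO mice lay above all CT mice (5.91% of all probe sets), with a gap of 0.0043, and the difference was 0.26 (standard error 0.099, limma, adjusted p = 0.703). It was the only one of the 16 at an unadjusted p under 0.05, where 2.98% of all probe sets were higher by that measure. Pdk4, which switches off pyruvate oxidation, had −0.45 (standard error 0.29), and Slc25a1, the citrate carrier, −0.091 (standard error 0.085).

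Of 21 transcription factors that act on these genes, 17 were kept, 8 with higher and 9 with lower means and a median of −0.0016. Mlxipl, which encodes ChREBP, had 10.16, 10.05 and 10.25 in the LERKO mice against 10.37, 10.58 and 10.25 in the CT mice. Its LERKO mice all lay below its CT mice (7.13% of all probe sets), with a gap of 0.0064. Its difference was −0.25 (standard error 0.10, limma, adjusted p = 0.703), and its partner Mlx had 0.14 (standard error 0.078). Across mice the level of Mlxipl was highest in CT replicate 2, where Pklr was lowest. Onecut1 had −0.60 (standard error 0.21) and Foxo1, which insulin restrains, 0.28 (standard error 0.11), and both had overlapping groups while passing an unadjusted p under 0.05. Over the list, 1 was higher and 1 lower by that measure, where 2.98% and 4% of all probe sets were.

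Of the 15 kept carbohydrate response targets, 5 had higher and 10 lower means in LERKO livers. Their median was −0.16, which ranged from −0.30 to −0.017 with 1 mouse left out. None passed at an adjusted p under 0.05. At an unadjusted p under 0.05, 1 was higher and 1 lower, where 2.98% and 4% of all probe sets were. Rgs16, a regulator of G protein signalling, had 10.86, 10.82 and 10.65 in the LERKO mice, against 9.41, 9.56 and 10.60 in the CT mice, a difference of 0.92 (standard error 0.30, limma, adjusted p = 0.703). All LERKO mice lay above all CT mice for Rgs16 (5.91% of all probe sets). Elovl6 and Acaca, enzymes of fatty acid synthesis, had −0.55 (standard error 0.22) and −0.26 (standard error 0.12). Scd1 had −0.16 (standard error 0.076), with all LERKO mice below all CT mice (7.13% of all probe sets). For Scd1 mRNA, the paper found no significant change by quantitative PCR. Among genes raised by feeding, 6 of 6 kept had lower means, where 53.5% of all probe sets did. Their median was −0.27, which ranged from −0.42 to −0.095 with 1 mouse left out. At an unadjusted p under 0.05 from limma, 1 of them was lower (4% of all probe sets), and the groups overlapped for all 6. Among the 6, Srebf1 had −0.38 (standard error 0.17) and Fasn −0.29 (standard error 0.17). For SREBP-1c, a transcript of Srebf1, the paper saw no difference by quantitative PCR. Among genes raised by fasting, 7 of 9 kept also had lower means, with a median of −0.13, which ranged from −0.23 to −0.067 with 1 mouse left out. In this list, Irs2 (−0.65, standard error 0.21) and G6pc1, described above, had all LERKO mice below all CT mice (7.13% of all probe sets). Both were also lower at an unadjusted p under 0.05 from limma (4% of all probe sets). The groups of Igfbp1 (−0.58, standard error 0.31) overlapped. G6pc1, Pck1 and Pdk4 also belong to lists described above, so these lists are not separate evidence. Without LERKO replicate 2 and CT replicate 3 the fasting median was −0.28, with Igfbp1 at −1.08, and the feeding median was −0.35.

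Leaving out the same 2 arrays moved other values of the wider pathways too. The median of the pyruvate entry list turned to −0.064, that of the transcription factors to 0.042, and those of the glycolysis, fructose and transporter lists were −0.057, 0.060 and −0.12. Gpd1 was then at 0.51, Aldoc at −0.61, Onecut1 at −0.32, Srebf1 at −0.61, Slc2a1 at −0.40, Slc2a5 at −0.12, Mlx at 0.083 and Pkm at −0.27, while Tkfc turned to 0.060. Pck1 and Slc2a9 were at −0.057 and −0.039, and Pfkm at 0.014. These are values with no test.

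**Figure D5:**
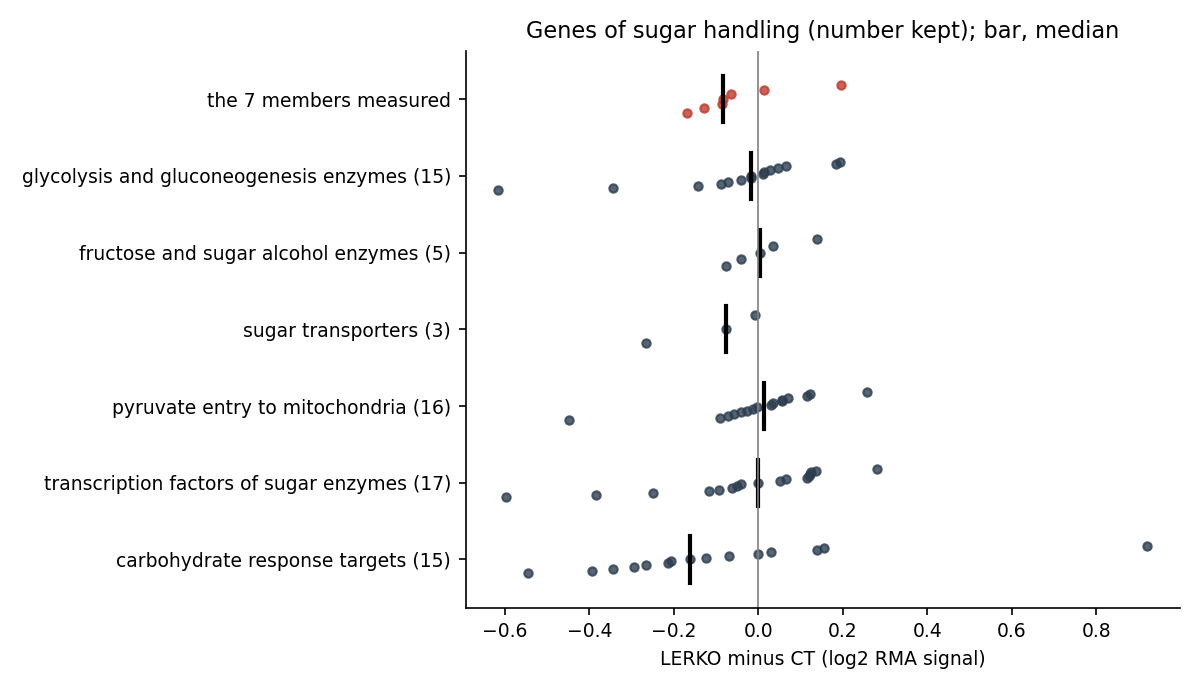
Difference in log2 RMA signal, LERKO minus CT, 1 point per gene, for the 7 genes (top, red) and 6 lists of related genes (kept genes in brackets), with the median as a bar. The 7 genes span −0.17 to 0.20, and G6pc1 at −0.62 and Rgs16 at 0.92 are the farthest points of their lists.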

How the data were processed

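Liver RNA of 3 LERKO and 3 CT mice was hybridised to 1 array each. The authors deposited 1 log2 value for each probe set and array, made with RMA in the oligo package (version not given in the sources used here).

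Gene names came from the annotation GEO holds for the array, with 21185 symbols updated through gene identifiers against RefSeq (GRCm38.p6), and 21218 probe sets had 1 gene, 1881 several and 12457 none. The probe set of highest mean stood for a gene. Following the methods, probe sets with a signal of 100 or more in at least 1 array were kept, and LERKO was compared with CT by limma 3.58.1 in R 4.3.3, two-sided, with genotype as the only term and Benjamini-Hochberg adjustment at 0.05 over all probe sets kept. The model was tested on simulated data. Depth does not apply to arrays, and their number limits the precision. The p-values measure the spread between mice.

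The members and lists were chosen with earlier results of these data known. Genes named are the members, Esr1, the gene of highest r with each member, the 3 of smallest p in each list, and known isoforms of the members. Pck1, Mlx and Scd1 are named beyond that rule, after their values were seen. Promoters came from RefSeq, where all 8 members matched. Alternatives covered the filter, probe sets, variance models, normalizations, the unequal variance test, the replicate block and leaving out arrays. Members have 1 probe set each, so no other probe set could be tried.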

Additional observations from a re-analysis of the deposited data

How the results depend on the processing

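Over 18 alternatives, 0 of the 7 genes passed an adjusted p of 0.05 in any, and 120 of 126 differences kept their sign. Part of these signs could not turn. Changes of filter or probe sets, the intensity trend, robust variances, the unequal variance test and the replicate block leave the difference in means as it is. Only array weights, normalizations and leaving out arrays could move it. The sign of Slc2a2 turned with array weights (−0.025). With 1 mouse left out, the difference ranged from −0.067 to 0.068 for Slc2a2, from −0.23 to 0.068 for Gckr and from −0.18 to 0.033 for Khk. It ranged from −0.23 to −0.013 for Pfkl, from −0.14 to −0.0096 for Fbp1, from −0.36 to −0.063 for Pklr and from 0.15 to 0.23 for Pcx. Genes with a higher mean in LERKO livers numbered 2 with all mice, 1 with array weights and 1 to 3 with 1 mouse left out. Genes whose groups did not overlap numbered 1 with all mice, 2 (Fbp1 and Pcx) with LERKO replicate 2 and CT replicate 3 both left out, and 1 to 3 with 1 mouse left out (Khk, Pklr and Pcx without CT replicate 2). Fewer mice make such gaps more frequent. Genes at an unadjusted p under 0.05 numbered 1 (Pcx) with all mice, and 0 with no filter, with the replicate block or with both those arrays left out. With 1 mouse left out they numbered 0 to 1, and without CT replicate 2 the gene was Pklr in place of Pcx. Over all probe sets, those called at an adjusted p under 0.05 numbered 0 with all mice, 3 (Creld2, Esr1 and Hyou1) where a signal of 100 was required in all 6 arrays, 1 (Esr1) with an intensity trend and 0 to 1 with 1 mouse left out. Those at an unadjusted p under 0.05 numbered 742 with all mice, 1739 with no filter, 455 with the unequal variance test, 1152 with both arrays left out and 416 to 1188 with 1 mouse left out. The cause of these shifts was not tested. The labels do not say whether replicate numbers pair the mice. Deviations of same-numbered arrays from their group means correlated at −0.16, −0.073 and −0.14, which cannot decide it with so few arrays. The replicate block gave 574 probe sets at an unadjusted p under 0.05 and an adjusted p of 0.908 for Pcx. Of the 7 genes, Pfkl was the dimmest, at 6.75 to 7.32.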
